A study of Mus musculus with 15 samples.

Results

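Epithelial cells are held together by tight junctions, adherens junctions, desmosomes and gap junctions, and 69 genes of these structures were followed here in mouse colon. They were taken by name from the probe sets of a whole-transcriptome array: claudins (Cldn), zonula occludens proteins (Tjp), the alpha, beta and gamma connexins (Gja, Gjb, Gjc), desmogleins (Dsg), desmocollins (Dsc), plakophilins Pkp1 to Pkp4, and Ocln, F11r, Jam2, Jam3, Marveld2, Marveld3, Cgn, Cdh1, Dsp and Jup. They are 69 of 19527 probe sets that carry exactly 1 gene symbol, out of 22142 on the array. The set holds 32 claudins, 12 connexins, 9 desmosomal cadherins, 6 desmosomal plaque proteins, 3 proteins of the occludin family, 3 junctional adhesion molecules, 3 zonula occludens proteins and cingulin, and E-cadherin.

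Tight junctions seal the space between neighbouring epithelial cells near the lumen. Claudins form the strands, and each family member makes them tighter or opens a pore for particular ions, while occludin, junctional adhesion molecules and zonula occludens proteins organise the strands and tie them to actin. Desmosomes join the keratin filaments of neighbouring cells through desmogleins, desmocollins and a cytoplasmic plaque, and connexins assemble into channels that connect the cytoplasm of adjacent cells. In the colon these structures keep luminal bacteria out of the tissue, and many of the same families also serve endothelium, smooth muscle and glia.

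Colon RNA came from 15 mice aged 11 weeks, 5 in each of 3 groups, with 1 array per mouse. Nemo FL mice carry loxP-flanked alleles of Nemo (Ikbkg), which encodes a subunit of the kinase complex that activates NF-kappaB. In NEMO IEC-KO mice a Villin-Cre transgene deletes these alleles in intestinal epithelial cells. Mice labelled NEMO IEC-KO Ripk1 S166A/S166A have that deletion and, in every cell of the body, a Ripk1 in which an autophosphorylated serine of the kinase domain is replaced by alanine (S166A); they are called double mutants here. The comparison of the first 2 groups asks what loss of NEMO in the epithelium does to the tissue, and the third group asks how far this needs the phosphorylation site. No group had S166A with intact NEMO, so effects of S166A alone cannot be told apart from effects on the response to NEMO loss. The reporting summary of the study calls the mice of the in vivo experiments littermates. Each mouse is called here by the first number of its title: mice 6 to 10 are Nemo FL, mice 11, 12, 13, 15 and 18 NEMO IEC-KO, and mice 1 to 5 double mutants. The values of a group are listed in that order throughout.

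Values are as deposited and were read as log2, so that a difference of 1 is a 2-fold change; array medians lay between 6.27 and 6.36. Mouse 10 has a title of the Nemo FL group but a genotype label of NEMO IEC-KO with unmutated Ripk1, and was grouped by its title. Its Ikbkg value was 6.28, against 6.18 to 6.55 in the other Nemo FL mice, 4.85 to 5.30 in NEMO IEC-KO and 5.23 to 5.43 in double mutants; whether the probes lie in the deleted exons is not given in the sources used here. Genes of the Y chromosome were high in all 5 double mutants and in mice 10, 13 and 15, so the groups differed in sex. The interquartile range was 3.06 and 3.01 log2 units in mice 1 and 2 and 3.22 to 3.40 in the other arrays. Results that change without mouse 10, or without mice 1 and 2, are given both ways.

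A gene was called when its adjusted p was under 0.05 in limma, fitted to the 2 groups compared and adjusted by Benjamini-Hochberg over all 22142 probe sets. In NEMO IEC-KO against Nemo FL colon 18 of the 69 junction genes were called, 9 higher and 9 lower. That is 26.1% of them, where 26.1% of the 19527 named probe sets were called (11.8% higher and 14.3% lower). The median difference of the 69 was 0.03, against 0.01 over all named probe sets. Over the array, too, calls lay in both directions. In the claudins, Cldn4, Cldn12, Cldn7 and Cldn10 rose while Cldn1 and Cldn15 fell. In the connexins, Gjb2 and Gjb1 rose while Gjb5, Gjc1 and Gjc3 fell. Desmosomal genes were called only in the upward direction (Dsc2, Pkp2 and Pkp3), and Ocln, Jam2, Jam3 and Tjp1 fell. E-cadherin, the adhesion molecule of the adherens junction, had a difference of 0.01.

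All 18 calls were kept when mouse 10 was left out, with Cldn20 added (19 called, background 24.3%). When mouse 10 was instead counted as NEMO IEC-KO, 3 genes were called, of which Cldn1 and Gjc3 were among the 18 (background 8.52%). The 5 values of the 2 groups did not overlap for 17 of the 69 genes (24.6%, against 18.7% of named probe sets), 16 of them among the 18 called and the last Marveld2.

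**Figure D1:**
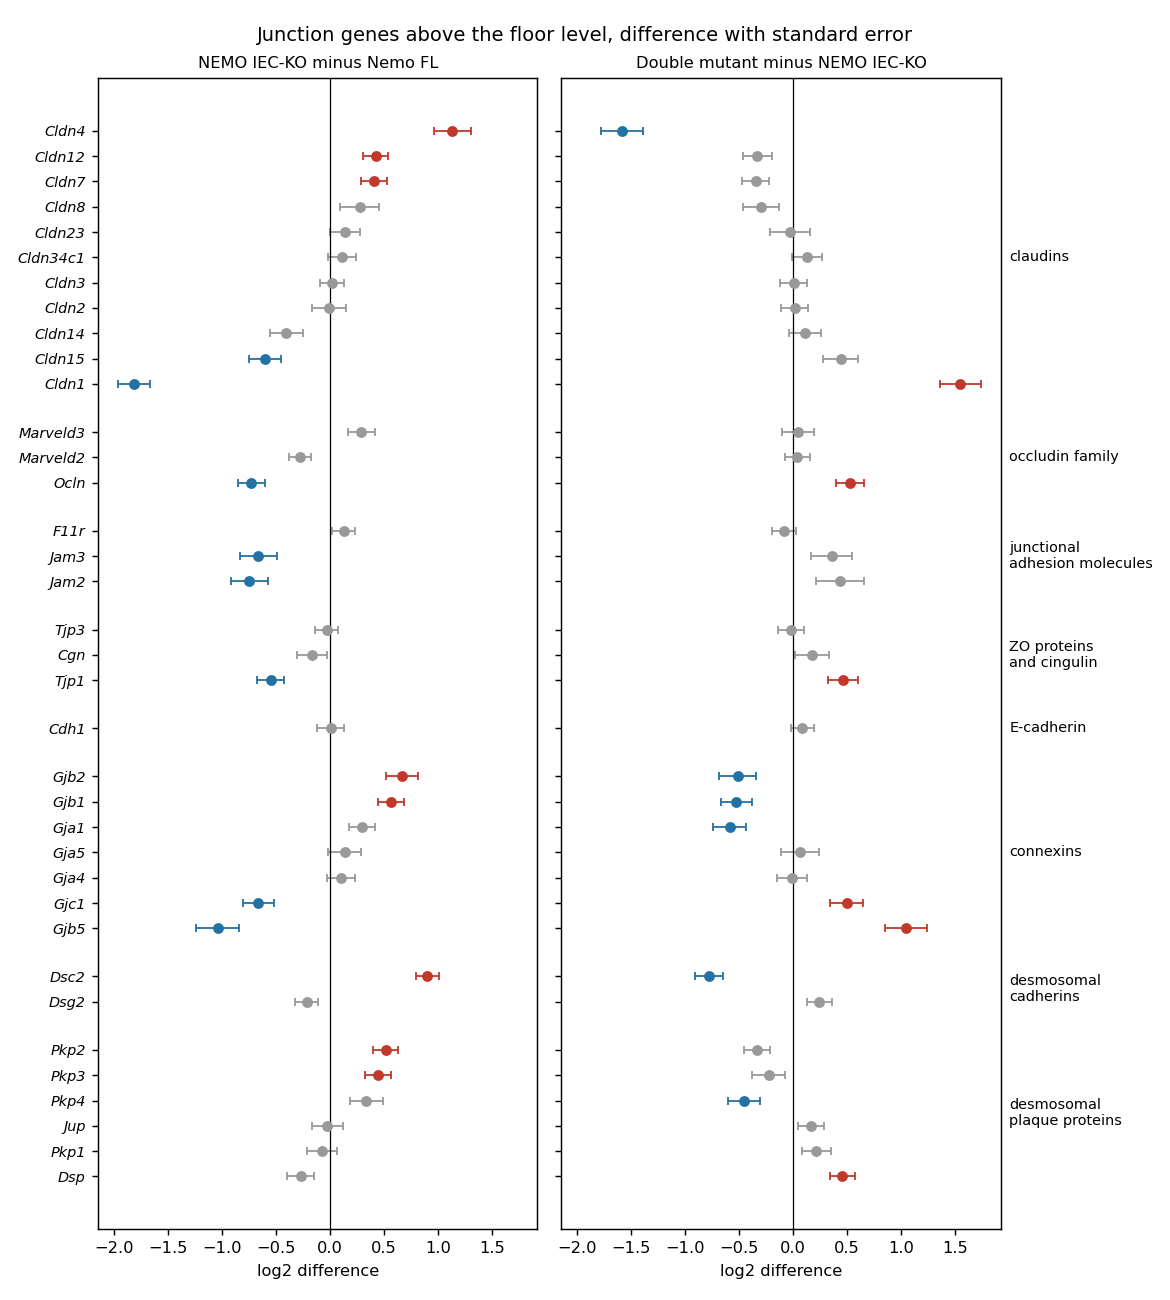
Difference of group means on the log2 scale (x axis) with its standard error, for the 36 junction genes above the floor level, by family, in NEMO IEC-KO against Nemo FL (left) and in double mutants against NEMO IEC-KO (right). Red and blue points are genes called higher and lower at an adjusted p under 0.05 and grey points are not called; Cldn1 and Cldn4 lie farthest from 0 in both panels, and Cdh1, Cldn2 and Cldn3 lie within 0.10 of it.

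Signal near the floor of the array limits 33 of the 69 genes. The floor level was set at 5.98, the 95th percentile of 23 genes of retina, testis, ovary, lens and other organs, and these 33 had all group means at or below it. They include Cldn5, a claudin of endothelium, Cldn18 of stomach and lung, the epidermal cadherins Dsg1a, Dsg1b, Dsg1c, Dsg3, Dsg4, Dsc1 and Dsc3, and the connexins Gja3, Gja6, Gja10 and Gjb6. Their differences between NEMO IEC-KO and Nemo FL ran from -0.93 to 0.62, and 2 of them, Gjc3 and Cldn10, were called. Of the other 36 genes 16 were called (44.4%, against 36.2% of the named probe sets above the floor level), and 15 did not overlap between the groups (41.7%, against 27.1%). The floor level was applied to the group means, so a gene could pass it through the group where it is high, and nothing is read from these shares.

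Members that share a chromosomal neighbourhood did not all move together. Cldn3 and Cldn4 are adjacent genes, with no protein-coding gene between them in the reference annotation, as are Cldn1 and Cldn16, Gjb2 and Gjb6, and Dsc2 and Dsc3. In NEMO IEC-KO against Nemo FL, Cldn4, Cldn1, Gjb2 and Dsc2 were called and their neighbours were not, of which all but Cldn3 lay near the floor level. The sequences before the start sites of Cldn4 and Cldn1, which had the largest measured rise and fall, and of the connexins Gjb2 and Gjb5, which moved in opposite directions, are shown for reference. They are the 250 bases upstream of the annotated start, from RefSeq on GRCm38.p6, each on the minus strand of its chromosome and written 5′ to 3′ in the direction of transcription. Capitals mark matches to the kappaB consensus bound by NF-kappaB, that of Gjb2 on the opposite strand. Near the 5′ end of Gjb5 they mark the letters of a TATA box, also on the opposite strand.
Cldn4, chr5:134946935-134947184: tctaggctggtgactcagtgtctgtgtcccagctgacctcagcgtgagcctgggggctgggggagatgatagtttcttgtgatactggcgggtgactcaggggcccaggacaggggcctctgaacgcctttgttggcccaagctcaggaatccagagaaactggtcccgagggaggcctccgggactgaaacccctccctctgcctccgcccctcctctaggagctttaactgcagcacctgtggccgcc
Cldn1, chr16:26371840-26372089: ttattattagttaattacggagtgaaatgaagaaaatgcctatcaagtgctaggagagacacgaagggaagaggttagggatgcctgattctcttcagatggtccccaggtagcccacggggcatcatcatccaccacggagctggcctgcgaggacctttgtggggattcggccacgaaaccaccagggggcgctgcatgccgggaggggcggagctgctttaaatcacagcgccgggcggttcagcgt
Gjb2, chr14:57104703-57104952: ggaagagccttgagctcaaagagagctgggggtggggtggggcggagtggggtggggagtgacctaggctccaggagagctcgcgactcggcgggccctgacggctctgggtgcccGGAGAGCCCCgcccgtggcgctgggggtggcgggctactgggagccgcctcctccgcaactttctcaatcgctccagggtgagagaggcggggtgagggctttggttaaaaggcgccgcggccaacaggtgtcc
Gjb5, chr4:127358165-127358414: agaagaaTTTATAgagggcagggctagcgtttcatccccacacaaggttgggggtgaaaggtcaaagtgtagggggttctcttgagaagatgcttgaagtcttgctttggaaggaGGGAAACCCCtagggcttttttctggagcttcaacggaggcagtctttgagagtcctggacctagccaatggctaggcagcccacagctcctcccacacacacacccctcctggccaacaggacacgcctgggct
The kappaB match begins 134 bases before the start in Gjb2, which rose, and 135 bases before it in Gjb5, which fell. Of the 45 junction genes with a promoter in the table, the kappaB consensus (searched on both strands) was present in 1 of 6 called higher, 1 of 6 called lower and 2 of 33 not called, against 7.25% of all 32851 promoters. The STAT palindrome TTCNNNGAA occurred in 2 of 6, 0 of 6 and 1 of 33 (7.02% of all promoters), the 2 being Cldn7 and Cldn12. The letters TATAAA occurred in 1 of 6, 1 of 6 and 5 of 33 (12.4% of all). These are matches of letters only, in 1 window per start site, and genes with several starts had several chances.

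Cldn4 and Cldn1 gave the largest measured changes among the claudins, in opposite directions. Cldn4, a sealing claudin and the receptor of Clostridium perfringens enterotoxin, read 8.54, 8.49, 8.55, 8.61 and 8.28 in the Nemo FL mice, 8.90, 9.83, 9.69, 9.96 and 9.73 in the NEMO IEC-KO mice and 8.24, 8.29, 7.65, 8.29 and 7.72 in the double mutants. Every NEMO IEC-KO value lay above every value of both other groups, with mouse 11 the lowest of them. The difference from Nemo FL was 1.13 ± 0.17 (SE, n = 5 and 5), 2.19-fold, with a limma adjusted p of 0.000184 and an exact two-sided permutation p of 0.00794. This is the smallest p that the assignments of 10 mice to groups of 5 can give. Double mutants were lower than NEMO IEC-KO by 2.99-fold (-1.58 ± 0.20, adjusted p = 7.82e-05).

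Cldn1, a barrier claudin without which mouse skin loses water, read 6.21, 6.38, 6.13, 6.72 and 6.07 in Nemo FL, 4.66, 4.43, 4.71, 4.51 and 4.14 in NEMO IEC-KO and 5.81, 5.62, 5.84, 6.70 and 6.22 in double mutants. The NEMO IEC-KO values lay below the floor level and below every value of the other groups. Mice 1, 2 and 3 of the double mutants (5.81, 5.62 and 5.84) also lay below the floor level. The measured difference was -1.81 ± 0.15 from Nemo FL to NEMO IEC-KO (adjusted p = 4.8e-07) and 1.55 ± 0.19 from NEMO IEC-KO to double mutants (adjusted p = 5.67e-05). With so many values below the floor level the size of either change is uncertain. Both calls of Cldn1 also held with mouse 10 counted as NEMO IEC-KO, without mice 1 and 2, and with sex in the fit.

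Cldn7 and Cldn12 rose by smaller amounts. Cldn7, which lies along the lateral membrane of intestinal epithelium as well as in tight junctions, read 10.68, 10.70, 10.49, 10.45 and 10.80, then 11.24, 10.81, 11.11, 11.01 and 10.99 in NEMO IEC-KO, and 10.81, 10.71, 10.86, 10.48 and 10.58 in double mutants. The lowest NEMO IEC-KO mouse, mouse 12, lay just above the highest Nemo FL mouse, mouse 10, and the difference was 0.41 ± 0.12 (adjusted p = 0.0187). Without mouse 8 or mouse 9 this call was lost (adjusted p = 0.0526 and 0.0561). Cldn12, implicated in paracellular movement of calcium, read 8.19, 8.15, 8.15, 8.19 and 7.97, 8.64, 8.36, 8.74, 8.67 and 8.37 and 8.56, 8.02, 8.20, 8.19 and 8.13 in the 3 groups. Its difference was 0.42 ± 0.11 (adjusted p = 0.0131), and mouse 1 of the double mutant group lay among the NEMO IEC-KO values. Neither was called between double mutants and NEMO IEC-KO mice, with differences of -0.35 (95% interval -0.61 to -0.08) for Cldn7 and -0.33 (-0.62 to -0.05) for Cldn12. Some alternatives did call them in this comparison. Among these, Cldn7 was called in the fit of all 3 groups (adjusted p = 0.0382) and without mouse 12 (adjusted p = 0.0425). Cldn12 was called without mouse 1 (adjusted p = 0.0383).

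Of the claudins that open ion pores, Cldn15 fell and Cldn2 was not called. Cldn15, a cation pore of the gut, read 8.53, 8.70, 8.56, 8.47 and 8.62 in Nemo FL, 7.88, 7.72, 7.99, 7.73 and 8.55 in NEMO IEC-KO and 8.63, 8.33, 8.53, 8.43 and 8.13 in double mutants. The Nemo FL and NEMO IEC-KO groups overlapped only through mouse 18, at 8.55, while the other 4 NEMO IEC-KO mice lay at or below 7.99. The difference was -0.60 ± 0.15 (adjusted p = 0.00748). Double mutants differed from NEMO IEC-KO by 0.44 (adjusted p = 0.0709, not called). That difference was called in some alternatives, among them the fit without mouse 18 (adjusted p = 0.00796). Cldn2, a pore for cations and water, read 7.13, 7.14, 7.08, 6.64 and 6.25, 6.86, 6.89, 6.73, 6.83 and 6.89 and 6.69, 6.57, 7.04, 6.97 and 7.01, with the Nemo FL mice spread over both others. Its difference between NEMO IEC-KO and Nemo FL was -0.01 (95% interval -0.35 to 0.33). Cldn10, which forms ion channels of kidney epithelium, was called higher by 0.62 ± 0.15 (adjusted p = 0.00726) with values near the floor, 4.78, 5.02, 4.81, 4.51 and 4.87 in Nemo FL against 5.12, 5.05, 5.69, 5.72 and 5.48 in NEMO IEC-KO and 5.08, 5.03, 5.31, 4.48 and 5.15 in double mutants.

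The other claudins above the floor level were not called in this comparison. Cldn8, a sealing claudin of the distal colon and kidney, read 9.97, 9.36, 9.37, 9.04 and 9.68, 9.50, 10.08, 9.56, 10.11 and 9.55 and 9.45, 9.32, 9.27, 9.38 and 9.91 in the 3 groups, which overlapped, with a difference of 0.27 (95% interval -0.11 to 0.66). Cldn3, the neighbour of Cldn4, had group means of 10.50, 10.52 and 10.53 and a difference of 0.02 (95% interval -0.22 to 0.26). Set against Cldn3 within each mouse, Cldn4 was higher by 1.11 in NEMO IEC-KO than in Nemo FL and changed by -1.59 from NEMO IEC-KO to double mutants. This pair was chosen after the values were seen, so these differences are a description. The remaining ones, Cldn23, Cldn34c1 and Cldn14, differed by 0.14, 0.11 and -0.40, with adjusted p of 0.511, 0.576 and 0.0677.

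**Figure D2:**
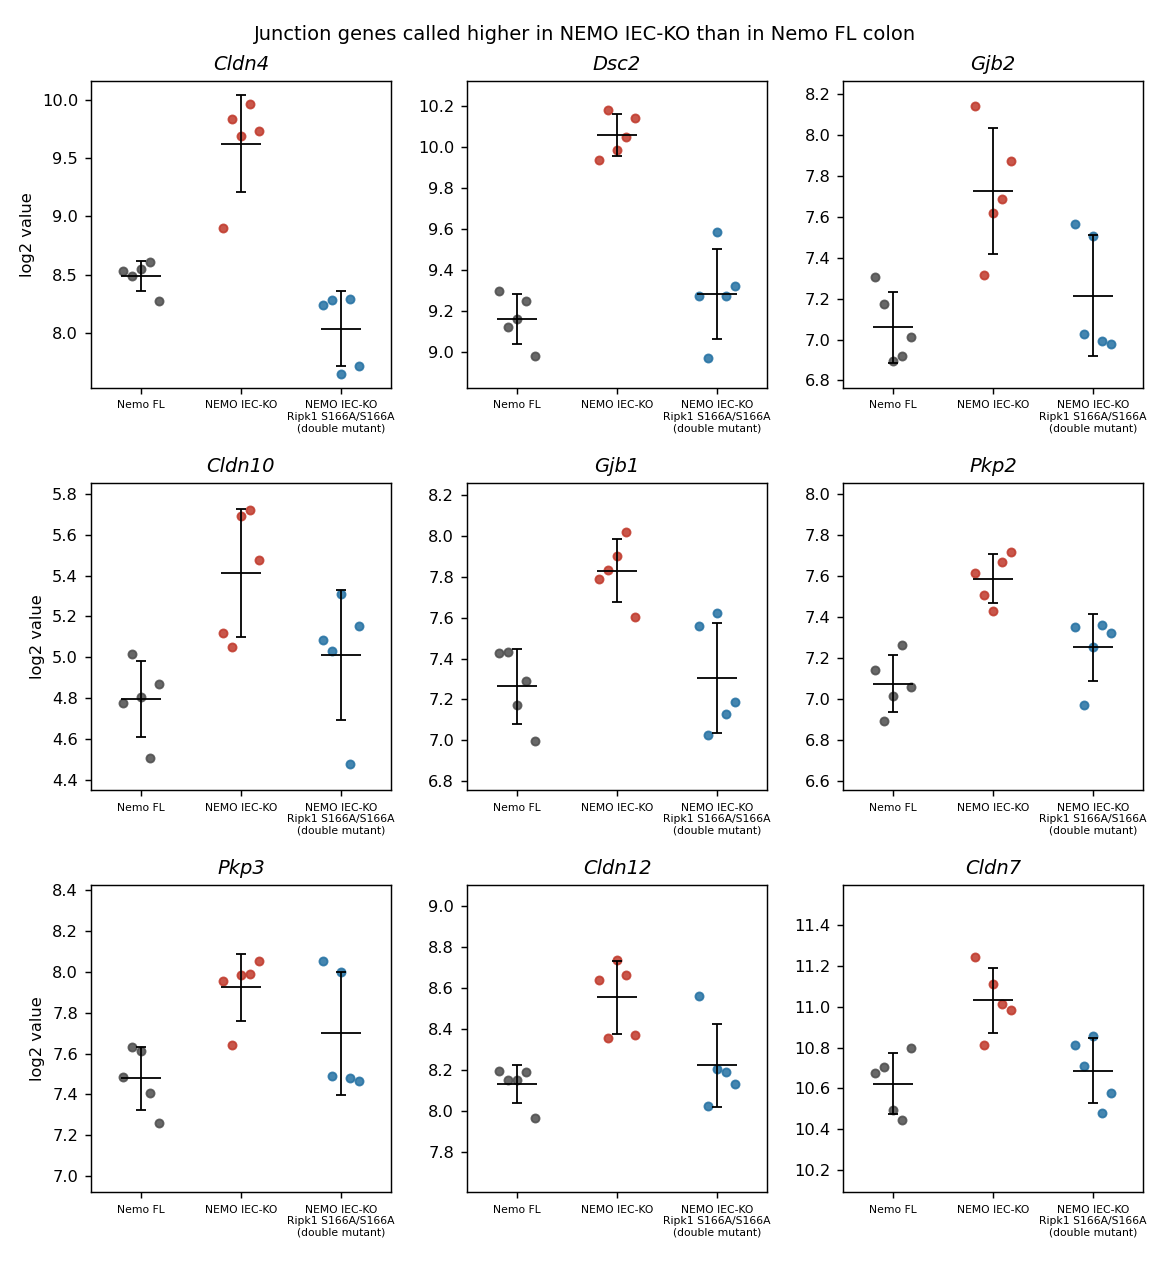
Log2 values (y axis, a separate scale for each gene) of the 9 junction genes called higher in NEMO IEC-KO than in Nemo FL colon; each point is 1 mouse, the long bar the group mean and the error bar its SD (n = 5 per group). In every panel all NEMO IEC-KO mice lie above all Nemo FL mice, and for Cldn4, Dsc2 and Pkp2 they also lie above all double mutants.

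Ocln, Jam2, Jam3 and Tjp1, which act beside the claudins, were lower in NEMO IEC-KO colon. Ocln encodes occludin, a membrane protein that regulates the strands, and read 9.75, 9.67, 9.72, 9.95 and 9.91 in Nemo FL, 9.07, 9.31, 9.21, 9.02 and 8.75 in NEMO IEC-KO and 9.42, 9.78, 9.45, 9.64 and 9.68 in double mutants. The NEMO IEC-KO values lay below those of both other groups without overlap, and the fall was 1.66-fold (-0.73 ± 0.12, adjusted p = 0.000498). Between double mutants and NEMO IEC-KO mice it was 0.52 ± 0.13 (adjusted p = 0.0116, and 0.0722 with sex in the fit). The relatives of occludin gave no calls. Marveld2, the tricellulin of contacts between several cells, differed by -0.28 (adjusted p = 0.0600) with no overlap between groups. Marveld3 read 8.36, 8.26, 8.44, 8.11 and 8.27, 8.42, 8.34, 8.91, 8.60 and 8.62 and 8.67, 8.97, 8.65, 8.34 and 8.48 in the 3 groups, a difference of 0.29 (adjusted p = 0.107).

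Tjp1 encodes the scaffold protein that ties claudins and occludin to actin. It read 9.71, 9.79, 9.75, 10.09 and 9.83 in Nemo FL, 9.24, 9.62, 9.08, 9.28 and 9.20 in NEMO IEC-KO and 9.41, 9.70, 9.72, 10.01 and 9.91 in double mutants. Every NEMO IEC-KO value lay below every Nemo FL value, by -0.55 ± 0.12 on average (adjusted p = 0.00426). The value of double mutants was higher than that of NEMO IEC-KO by 0.46 ± 0.14 (adjusted p = 0.0308), with mouse 1 among the NEMO IEC-KO values. That call was lost without mouse 2, 4, 5, 11, 13, 15 or 18 alone (adjusted p from 0.0534 to 0.0815). Its relatives Tjp3 and Cgn, the latter encoding cingulin of the cytoplasmic face, differed by -0.03 (95% interval -0.26 to 0.20) and -0.17 (-0.46 to 0.12) and were not called.

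The junctional adhesion molecules divided by gene. F11r, the member of epithelium and platelets, differed by 0.13 between NEMO IEC-KO and Nemo FL (95% interval -0.10 to 0.35) and was not called. Jam2 and Jam3, whose products bind each other and are known from endothelium, both fell. Jam2 read 7.37, 7.49, 7.97, 8.07 and 7.64 in Nemo FL, 6.74, 7.19, 7.08, 7.28 and 6.53 in NEMO IEC-KO and 6.98, 7.15, 6.92, 7.95 and 7.97 in double mutants, with no overlap of the first 2 groups and a difference of -0.75 ± 0.17 (adjusted p = 0.00455). Jam3 read 6.57, 6.88, 6.86, 7.05 and 7.36, 6.59, 5.99, 6.41, 6.53 and 5.89 and 6.36, 6.38, 6.36, 7.03 and 7.06, with mice 11 and 6 overlapping and a difference of -0.66 ± 0.17 (adjusted p = 0.00913). For both genes mice 1, 2 and 3 of the double mutant group lay near the NEMO IEC-KO values and mice 4 and 5 near the Nemo FL values. The differences between double mutants and NEMO IEC-KO, 0.43 (95% interval -0.04 to 0.90) and 0.36 (-0.04 to 0.75), were not called. Of 11 endothelial markers measured 1, Tek, was lower in NEMO IEC-KO (-0.99), and the mean of the list was 6.46 to 6.90 in Nemo FL and 6.22 to 6.81 in NEMO IEC-KO mice. The part of these markers in the differences of Jam2 and Jam3 was not tested.

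Cdh1 encodes E-cadherin, the calcium-dependent adhesion molecule on which epithelial junctions assemble. It read 12.57, 12.59, 12.69, 12.48 and 12.09 in Nemo FL, 12.44, 12.55, 12.41, 12.50 and 12.56 in NEMO IEC-KO and 12.59, 12.46, 12.64, 12.63 and 12.57 in double mutants. The groups overlapped throughout, mouse 10 was the lowest of all 15, and the 95% interval of the difference between NEMO IEC-KO and Nemo FL was -0.26 to 0.27. The mean of the epithelial marker list was 10.633 to 10.828 in Nemo FL, 10.582 to 10.626 in NEMO IEC-KO and 10.724 to 10.936 in double mutants, so that every NEMO IEC-KO mouse lay below every other mouse by a small margin. In this list 1 of its 12 genes was called higher (Cdh17, 0.29) and 2 lower (Hnf4a, -0.65, and Phgr1, -0.56) in NEMO IEC-KO against Nemo FL.

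**Figure D3:**
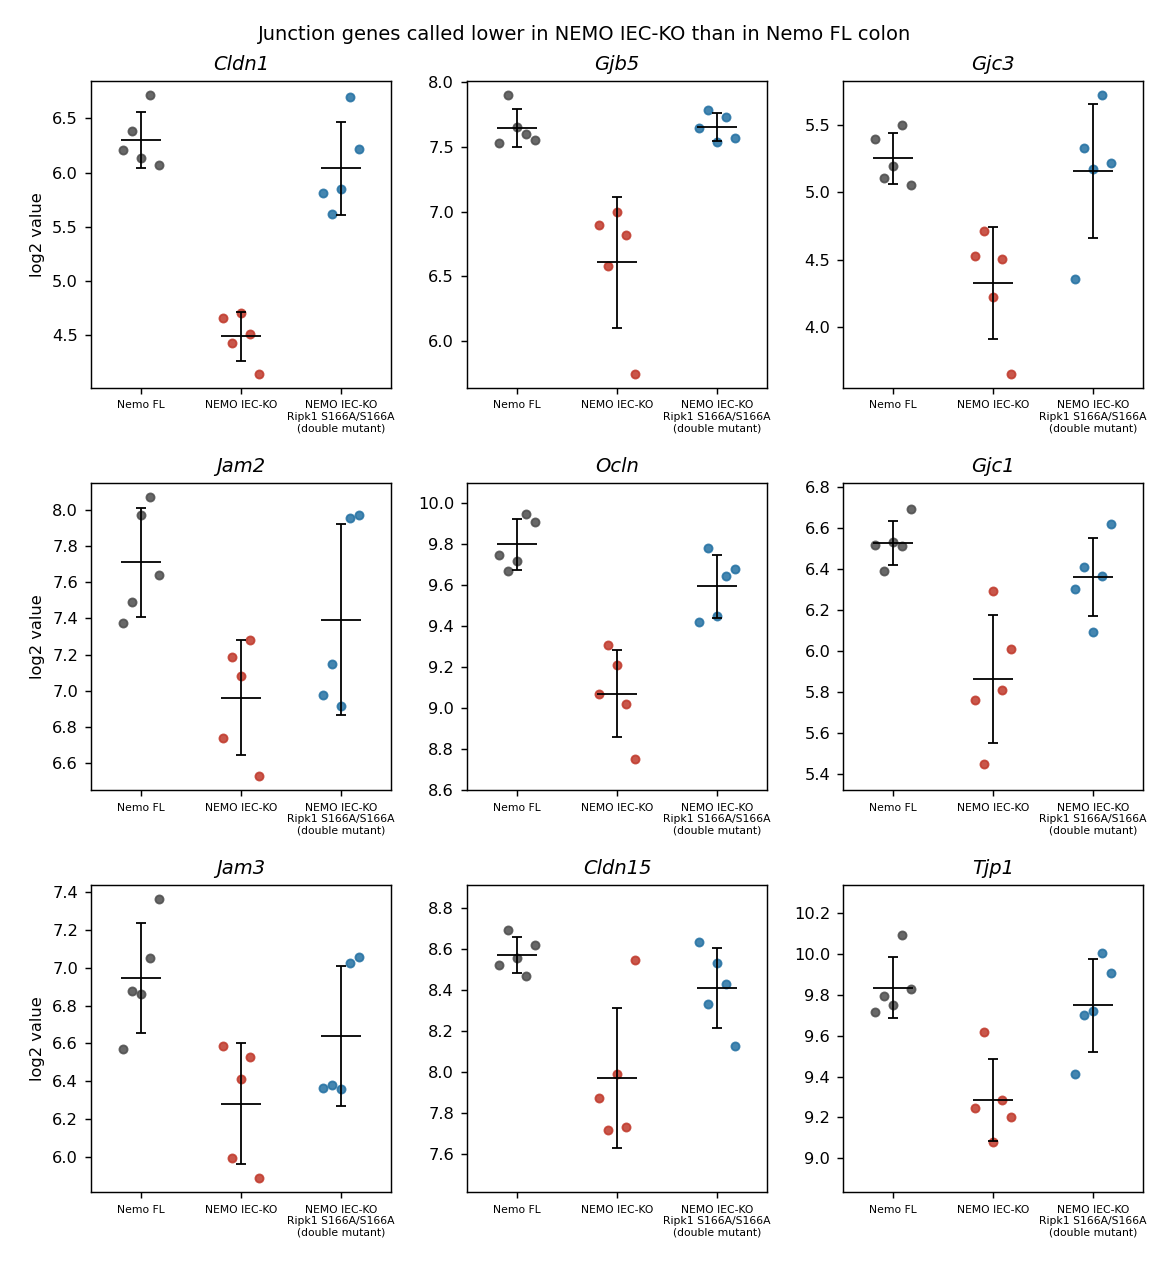
Log2 values (y axis, a separate scale for each gene) of the 9 junction genes called lower in NEMO IEC-KO than in Nemo FL colon; each point is 1 mouse, the long bar the group mean and the error bar its SD (n = 5 per group). The NEMO IEC-KO mice lie below the Nemo FL mice without overlap except for Cldn15 and Jam3, and for Cldn1, Gjb5 and Ocln also below every double mutant mouse.

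The connexins split as the claudins did. Gjb2 and Gjb1, beta connexins that can share channels in liver, rose. Gjb2 read 7.30, 7.17, 6.89, 6.92 and 7.01 in Nemo FL, 8.14, 7.32, 7.62, 7.69 and 7.88 in NEMO IEC-KO and 7.56, 7.03, 7.51, 6.99 and 6.98 in double mutants. The NEMO IEC-KO mice lay just above the Nemo FL mice, with the lowest (mouse 12) at 7.32 against 7.30 in mouse 6, and the difference was 0.67 ± 0.15 (adjusted p = 0.00378). Gjb1 read 7.42, 7.43, 7.17, 7.29 and 7.00, 7.79, 7.83, 7.90, 8.02 and 7.60 and 7.56, 7.03, 7.62, 7.13 and 7.19, a difference of 0.57 ± 0.12 (adjusted p = 0.00311).

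Against NEMO IEC-KO, double mutants were lower for both, by -0.51 ± 0.17 for Gjb2 (adjusted p = 0.0464) and -0.53 ± 0.14 for Gjb1 (adjusted p = 0.0171). Mice 1 and 3 lay within the NEMO IEC-KO range for Gjb2, and mouse 3 for Gjb1. The Gjb2 call was lost with sex in the fit (adjusted p = 0.210) and without mice 1 and 2 (adjusted p = 0.0802). It was also lost without mouse 2, 4, 5, 11, 13, 15 or 18 alone (adjusted p from 0.0652 to 0.114). The Gjb1 call was lost without mouse 2 alone (adjusted p = 0.0501). With mouse 10 counted as NEMO IEC-KO neither was called (adjusted p = 0.2284 for Gjb2 and 0.2055 for Gjb1).

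Gjb5, a beta connexin best known from keratinocytes and placenta, fell. It read 7.53, 7.90, 7.65, 7.60 and 7.55 in Nemo FL, 6.90, 6.58, 7.00, 6.82 and 5.75 in NEMO IEC-KO and 7.64, 7.78, 7.54, 7.73 and 7.57 in double mutants. No NEMO IEC-KO value overlapped with another group, mouse 18 was the lowest, and the Nemo FL and double mutant values overlapped with each other. The fall was 2.06-fold (-1.04 ± 0.20, adjusted p = 0.00113), and the difference of double mutants from NEMO IEC-KO was 1.05 ± 0.19 (adjusted p = 0.00173). Of the keratinized squamous epithelium markers, 2 of 16 were called in NEMO IEC-KO, both higher (Ly6d, 2.09, and Krt13, 0.56), and the mean of the list lay between 4.59 and 4.98 in all mice, below the floor level.

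Gjc1 and Gjc3, the gamma connexins measured, fell. Gjc1, found in smooth muscle and pacemaker tissues, read 6.52, 6.39, 6.53, 6.51 and 6.69 in Nemo FL, 5.76, 5.45, 6.30, 5.81 and 6.01 in NEMO IEC-KO and 6.30, 6.41, 6.09, 6.37 and 6.62 in double mutants. The fall was -0.66 ± 0.14 (adjusted p = 0.00302) with no overlap, and the difference of double mutants from NEMO IEC-KO, with overlap, was 0.50 ± 0.16 (adjusted p = 0.0363). The NEMO IEC-KO mean of Gjc1, 5.87, lay below the floor level of 5.98, so the size of either change is uncertain. Gjc3, a connexin of myelinating glia, read 5.40, 5.11, 5.20, 5.50 and 5.06, 4.53, 4.71, 4.22, 4.51 and 3.65 and 4.36, 5.33, 5.17, 5.72 and 5.22, all below the floor level. It differed by -0.93 ± 0.18 (adjusted p = 0.00122), and mouse 1 lay among the NEMO IEC-KO values. Of the 5 enteric glia markers measured, 1 was lower in NEMO IEC-KO (Entpd2, -0.42). With sex in the fit neither gamma connexin was called between double mutants and NEMO IEC-KO mice (adjusted p = 0.309 for Gjc1 and 0.101 for Gjc3). The Gjc1 call was also lost without mouse 1, 2, 4, 5, 11, 12 or 15 alone (adjusted p from 0.0545 to 0.0877). That of Gjc3 was lost without mouse 2 or mouse 4 alone (adjusted p = 0.0524 and 0.0540). With mouse 10 counted as NEMO IEC-KO, neither was called in this comparison (adjusted p = 0.269 for Gjc1 and 0.0941 for Gjc3).

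Gja1, the most widely made connexin, showed its larger difference between the 2 groups that lack NEMO. It read 7.64, 7.91, 8.02, 7.93 and 7.89 in Nemo FL, 8.03, 7.95, 8.29, 8.35 and 8.27 in NEMO IEC-KO and 7.14, 7.52, 7.57, 7.95 and 7.78 in double mutants. The difference between NEMO IEC-KO and Nemo FL was 0.30 ± 0.12 (adjusted p = 0.0797, not called), and that between double mutants and NEMO IEC-KO was -0.59 ± 0.15 (adjusted p = 0.0138). Mice 1 and 2 had the lowest values of all 15, and without them the latter was -0.41 (adjusted p = 0.0936). Gja4 and Gja5, connexins of vessel walls, differed from Nemo FL by 0.11 and 0.14 in NEMO IEC-KO mice (95% intervals -0.17 to 0.38 and -0.19 to 0.46) and were not called.

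In desmosomes the calls were of 1 cadherin and of plakophilins. Dsc2, the desmocollin of simple epithelia, read 9.30, 9.12, 9.16, 9.25 and 8.98 in Nemo FL, 9.94, 10.18, 9.99, 10.05 and 10.15 in NEMO IEC-KO and 9.27, 8.97, 9.58, 9.27 and 9.32 in double mutants. All NEMO IEC-KO mice lay above all others, by 1.86-fold over Nemo FL (0.90 ± 0.11, adjusted p = 2.45e-05) and with double mutants below NEMO IEC-KO by 1.71-fold (-0.78 ± 0.13, adjusted p = 0.000685). Dsg2, the desmoglein that pairs with it in the gut, read 10.61, 10.60, 10.63, 10.56 and 10.74, 10.58, 10.53, 10.38, 10.34 and 10.23 and 10.58, 10.75, 10.57, 10.69 and 10.68. Its difference of -0.22 (95% interval -0.44 to 0.01, adjusted p = 0.159) was not called and had the opposite sign.

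Set against Dsg2 within each mouse, Dsc2 was higher by 1.12 in NEMO IEC-KO than in Nemo FL, and the change from NEMO IEC-KO to double mutants was -1.02. This pair, too, was chosen after the values were seen. The other 7 desmosomal cadherins measured, which belong mainly to stratified epithelium and hair, lay near the floor level and none was called.

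The plaque proteins gave 2 calls in NEMO IEC-KO against Nemo FL. Pkp2, a plakophilin of simple epithelia and heart, read 7.14, 6.89, 7.02, 7.26 and 7.06 in Nemo FL, 7.62, 7.51, 7.43, 7.67 and 7.72 in NEMO IEC-KO and 7.35, 6.97, 7.26, 7.36 and 7.32 in double mutants. It rose by 0.51 ± 0.11 (adjusted p = 0.00321). The double mutant values lay between the other groups, below every NEMO IEC-KO value and overlapping with Nemo FL. Their difference from NEMO IEC-KO was -0.34 (adjusted p = 0.0646, not called). Some alternatives did call it, among them the fit of all 3 groups (adjusted p = 0.0368) and median scaling (adjusted p = 0.0439). Pkp3, a plakophilin of most epithelial desmosomes, read 7.49, 7.63, 7.61, 7.41 and 7.26, 7.95, 7.64, 7.98, 7.99 and 8.05 and 8.05, 7.49, 8.00, 7.48 and 7.46 and rose by 0.44 ± 0.12 (adjusted p = 0.0124). Its double mutants fell into high values in mice 1 and 3 and low values in mice 2, 4 and 5, with a difference from NEMO IEC-KO of -0.23 (adjusted p = 0.330).

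Dsp and Pkp4 were called between the 2 groups that lack NEMO and not between NEMO IEC-KO and Nemo FL. Dsp, encoding desmoplakin, which links the plaque to keratin, read 10.42, 10.63, 10.57, 10.76 and 10.22 in Nemo FL, 10.38, 10.41, 10.03, 10.14 and 10.30 in NEMO IEC-KO and 10.63, 10.70, 10.67, 10.82 and 10.70 in double mutants. Double mutants lay above NEMO IEC-KO without overlap by 0.46 ± 0.12 (adjusted p = 0.0127), and NEMO IEC-KO differed from Nemo FL by -0.27 (adjusted p = 0.135). Pkp4, which is found at adherens junctions as well as desmosomes, read 8.40, 8.21, 8.28, 8.67 and 8.07, 8.64, 8.90, 8.24, 8.57 and 8.96 and 8.19, 7.94, 8.26, 8.18 and 8.47, with a difference of -0.46 ± 0.15 (adjusted p = 0.0457) between double mutants and NEMO IEC-KO. The Pkp4 call was lost without mice 1 and 2, with array weights, with quantile normalization, with sex in the fit, with mouse 10 counted as NEMO IEC-KO, and without mouse 1, 2, 3, 4, 11, 12, 15 or 18 alone. With sex in the fit, and without mouse 13, Pkp4 was called in NEMO IEC-KO against Nemo FL. Jup, encoding plakoglobin of both desmosomes and adherens junctions, read 10.38, 10.50, 10.56, 10.50 and 9.84, 10.25, 10.54, 10.23, 10.37 and 10.26 and 10.53, 10.39, 10.68, 10.54 and 10.33, and its difference between NEMO IEC-KO and Nemo FL was -0.03 (95% interval -0.33 to 0.28). Pkp1, the main plakophilin of epidermis, differed by -0.08 (95% interval -0.37 to 0.22).

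**Figure D4:**
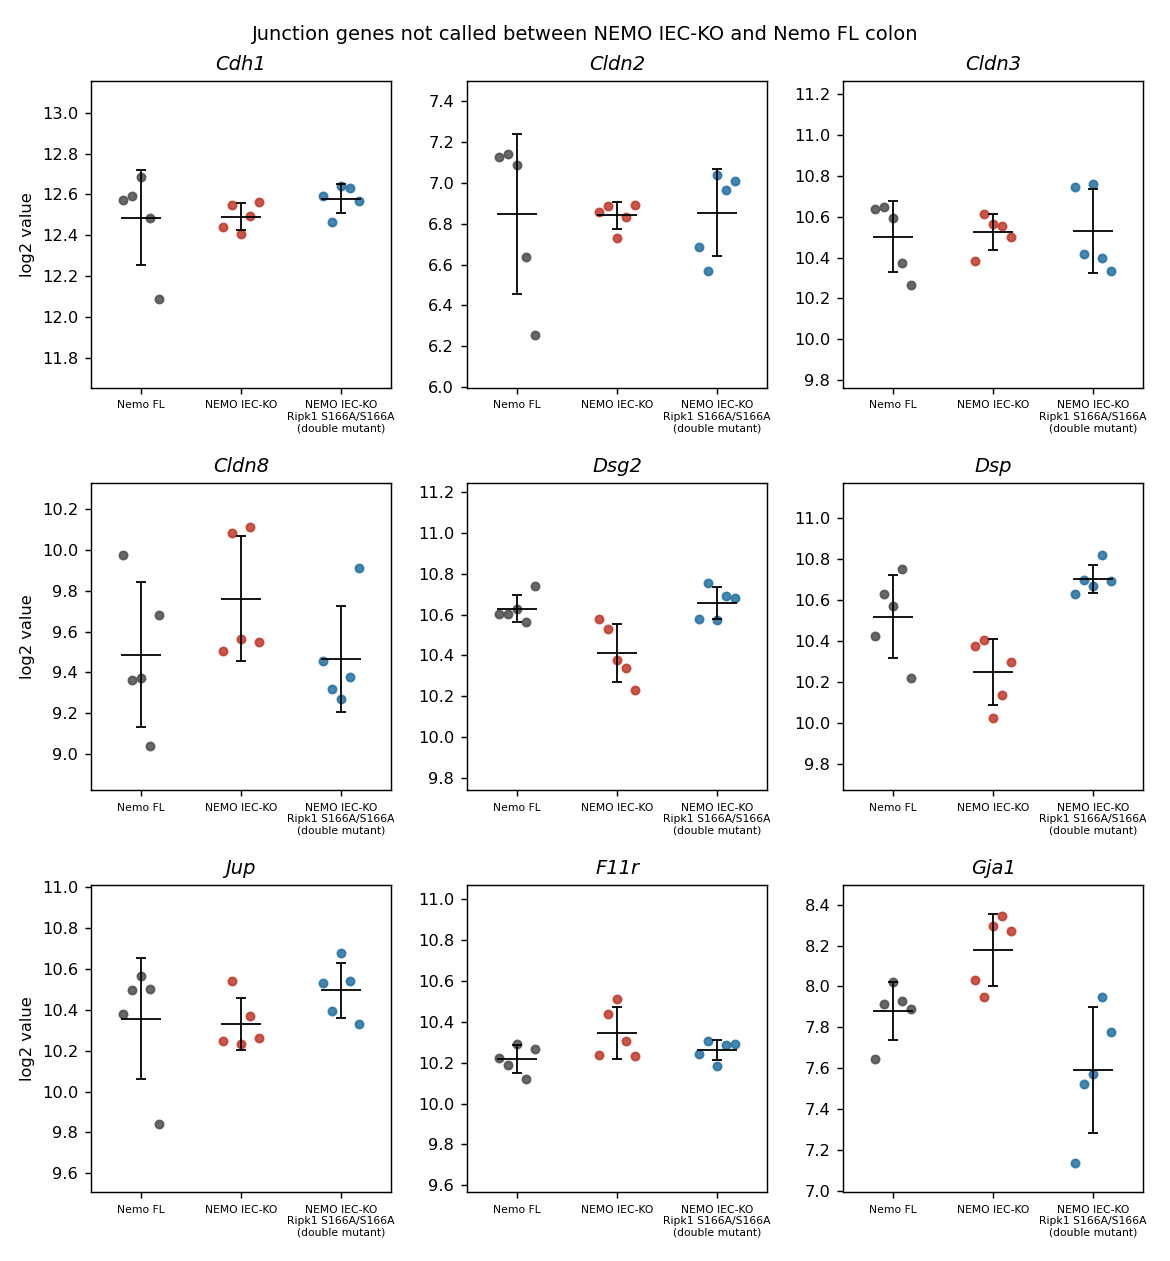
Log2 values (y axis, a separate scale for each gene) of 9 junction genes that were not called between NEMO IEC-KO and Nemo FL colon, among them E-cadherin (Cdh1) and the partners of called genes; each point is 1 mouse, the long bar the group mean and the error bar its SD (n = 5 per group). The groups overlap in every panel of this comparison, and mouse 10 is the low Nemo FL point of Cdh1 and Jup.

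Over all 69 genes, 13 were called between double mutants and NEMO IEC-KO mice, 7 higher (Cldn1, Gjb5, Gjc3, Ocln, Gjc1, Tjp1 and Dsp) and 6 lower (Cldn4, Dsc2, Gja1, Gjb1, Gjb2 and Pkp4). That is 18.8% of the genes, where 19.8% of named probe sets were called (9.64% higher and 10.2% lower). Both comparisons use the same NEMO IEC-KO mice, so a chance deviation of these mice would move the 2 differences in opposite directions. The 5 values of the 2 groups did not overlap for Cldn1, Cldn4, Gjb5, Dsc2, Dsp, Pkp2 and Ocln (10.1% of the genes, against 14.1% of named probe sets). Without mice 1 and 2, 9 of the 13 calls were kept, and Gja1, Gjb2, Gjc1 and Pkp4 were lost (background 11.4%). Without mouse 2 alone 7 were kept (background 14.7%), and without mouse 4 alone 8 (background 15.5%). With sex in the fit 8 of the 13 were kept, and Cldn10, Cldn22 and Pkp1 were added (11 called, background 18.6%). All double mutants were male and 3 of the 5 NEMO IEC-KO mice female, so that fit rests on mice 13 and 15 alone for the male side of NEMO IEC-KO. Cldn1, Cldn4, Dsc2, Dsp and Gjb5 were called in each of these fits. With mouse 10 counted as NEMO IEC-KO, Cldn1, Cldn4, Dsp, Gjb5 and Gja1 were kept (background 6.77%). Dsc2 was then not called (-0.60, limma adjusted p = 0.0805).

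Double mutants and Nemo FL mice gave no called junction gene with limma, where 0.0563% of named probe sets were called (0.0154% higher and 0.041% lower). All double mutants were male, and the only male Nemo FL mouse was mouse 10, whose labels disagree. Genotype and sex therefore cannot be told apart in this comparison, and no fit with sex was run. At an unadjusted p under 0.05 there were 4, 2 higher (Marveld3 and Cldn34d) and 2 lower (Cldn4 and Marveld2), against 10.5% of named probe sets. The smallest p was that of Cldn4, which lay -0.45 ± 0.14 from Nemo FL (95% interval -0.76 to -0.14, adjusted p = 0.379). Mice 3 and 5 were well below the Nemo FL range and mice 1, 2 and 4 at its lower edge.

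For genes called in NEMO IEC-KO against Nemo FL, the 95% intervals of the difference between double mutants and Nemo FL ran from -0.66 to 0.13 for Cldn1, -0.23 to 0.24 for Gjb5, -0.44 to 0.03 for Ocln, -0.36 to 0.19 for Tjp1, -0.77 to 0.14 for Jam2, -0.50 to 0.32 for Gjc3 and -0.14 to 0.38 for Dsc2. Cldn34d, a claudin near the floor level, read 2.61, 2.49, 2.59, 2.50 and 2.70 in Nemo FL, 2.60, 2.46, 2.79, 3.28 and 2.40 in NEMO IEC-KO and 3.54, 2.71, 3.26, 2.89 and 2.51 in double mutants, and Marveld3 differed from Nemo FL by 0.33 ± 0.13 (adjusted p = 0.414).

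Other genes of the same structures, from lists of partner proteins, are given by counts, beside which the background above (11.8% of named probe sets higher and 14.3% lower) applies, and nothing particular to these lists is read from them. Of 19 cytoplasmic tight junction and polarity proteins, 7 were lower in NEMO IEC-KO and 2 higher. Among those that fell were the multi-PDZ scaffolds Mpdz (-1.16, adjusted p = 0.000285, with group means of 4.92, 3.76 and 4.76, all below the floor level) and Magi1 (-0.80, adjusted p = 0.000364), the polarity protein Pard3 (-0.78, adjusted p = 0.00171) and its kinase partner Prkcz (-0.73, adjusted p = 0.00422), and these 4 were also the ones called higher in double mutants than in NEMO IEC-KO. Pard6b and Crb3 rose by 0.67 and 0.43. Of 9 other membrane proteins of tight junctions, Marveld1 (-1.31) and Cxadr (-0.73), the coxsackievirus and adenovirus receptor, were lower and Lsr (0.40), of tricellular contacts, was higher.

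Adherens junction genes gave 1 call in each direction of 12, Vcl (vinculin, -0.70) and Cdh17 (0.29). Of 11 keratins and plakins, Krt7 was higher (0.66) and Dst, a plakin that links filaments, lower (-1.15). Of 6 hemidesmosome genes, Itga6, the integrin that binds laminin, was higher (0.80), and of 7 other channel genes Panx1, a pannexin, was higher (0.50). Of 16 transcription factors and splicing factors known to control epithelial junction genes, Grhl3 (0.87) and Snai1 (0.59) were higher and Zeb1 (-0.91), Grhl2 (-0.74), Hnf4a (-0.65) and Klf4 (-0.47) lower. No gene of these lists was called between double mutants and Nemo FL mice by limma. Over all the lists 6 genes were at an unadjusted p under 0.05 there, where 10.5% of named probe sets were.

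Markers of other cell types moved with the groups. All 10 smooth muscle markers and all 3 markers of interstitial cells of Cajal were lower in NEMO IEC-KO than in Nemo FL, and all were higher in double mutants than in NEMO IEC-KO mice. The mean of the smooth muscle list was 10.57 to 11.06 in Nemo FL, 8.02 to 9.72 in NEMO IEC-KO and 10.34 to 11.02 in double mutants. Leukocyte markers were higher in NEMO IEC-KO than in Nemo FL for 7 of 9 and lower in double mutants than in NEMO IEC-KO for 6 of 9, with list means of 5.74 to 6.38, 7.58 to 8.89 and 6.11 to 6.57. Of 6 fibroblast markers, Pdpn was higher and Dcn and Lum were lower, and 2 of 9 markers of pancreatic acinar cells were lower.

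Within NEMO IEC-KO, mouse 18 had the lowest smooth muscle mean (8.02) and the highest leukocyte mean (8.89). Of the 18 called genes, its value was the lowest of the group for Cldn1, Gjb5, Gjc3, Ocln, Jam2, Jam3 and Gjb1 and the highest for Cldn15, Pkp2 and Pkp3. Mouse 11, with the lowest leukocyte mean (7.58), was the lowest of the group for Cldn4 and Dsc2 and the highest for Gjb2, Cldn7 and Jam3. All 18 calls between NEMO IEC-KO and Nemo FL were kept without mouse 18 and without mouse 11. The part of these cell types in the junction gene differences was not tested, and in whole tissue fewer cells of a type and less RNA per cell cannot be told apart.

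**Figure D5:**
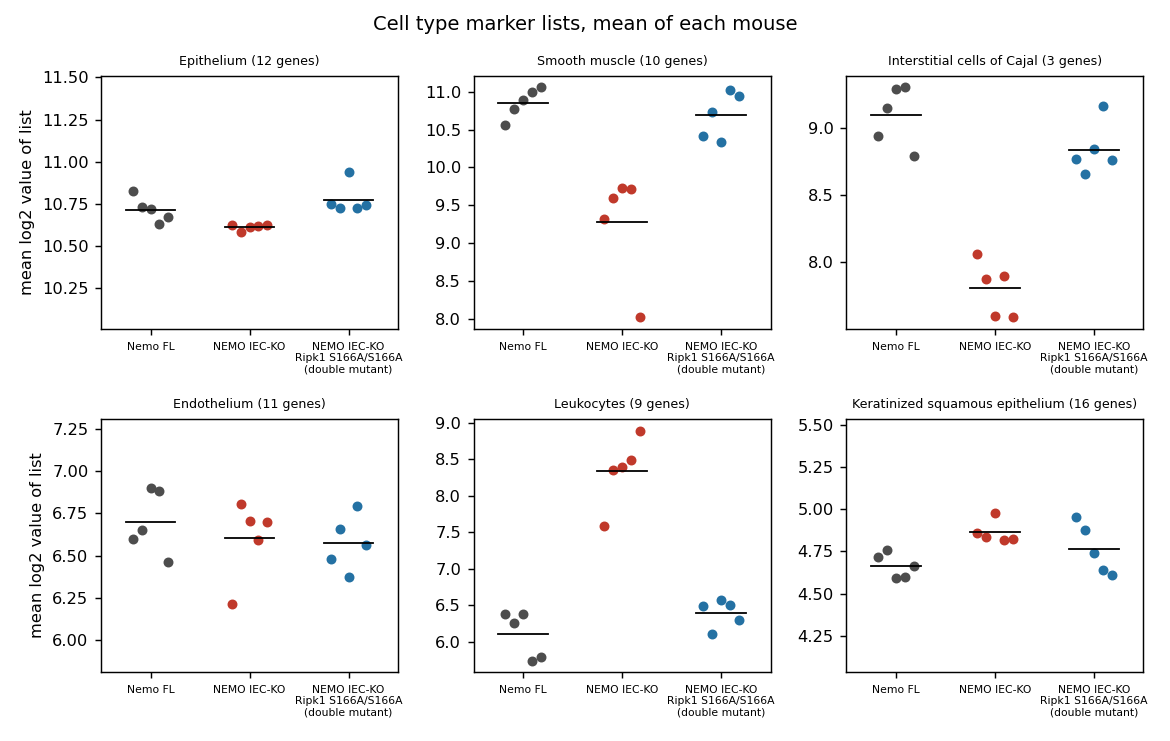
Mean log2 value (y axis, a separate scale for each list) of 6 lists of cell type markers in each mouse; points are mice and the bar is the mean of the group (n = 5). Smooth muscle and interstitial cell of Cajal markers are low and leukocyte markers high in all 5 NEMO IEC-KO mice, and the same 5 mice are the lowest of all 15 in the epithelial list, by a small margin (at most 10.626 against at least 10.633).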

How the data were processed

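Total RNA of frozen colon tissue was hybridised to Clariom S mouse arrays, 1 array for each of 15 mice. The authors deposited 1 table of values for 22142 probe sets; the array quality control tools named per the labels are Affymetrix Expression Console and Transcriptome Analysis Console. Their range, 1.69 to 13.6, is that of log2 expression and they were taken as such; the base, probe set summary and normalization are not given in the sources used here, and the table holds no detection call. Symbols came from the reference annotation on GRCm38.p6, and no array coordinates were used.

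The deposited log2 values were used unchanged. For each comparison the arrays of its 2 groups entered a linear model without covariates (limma 3.58.1, R 4.3.3) with empirical Bayes moderation. Benjamini-Hochberg adjustment ran over 22142 probe sets, and a gene was called at an adjusted p under 0.05. Single genes also had exact two-sided permutation tests over all assignments of the 10 mice. Group means of 5 mice limit the precision. Apart from littermate status, the sources used here do not tie the mice to litters, cages or days, and the fit holds no such term. The p-values treat the mice as independent, and effects of a shared litter, cage or day were not tested. The fit was tested on simulated data.

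Junction genes and the lists of partner proteins and cell type markers were chosen with earlier results of these data known. Values of every mouse are given for the called members of the first comparison, for the 3 with the smallest p in the comparison with 0 calls, and for Ocln, Tjp1, Cdh1, Cldn2, Cldn4, Cldn7, Cldn8, Gja1, Gjb1, Dsg2, Dsc2, Dsp, Jup and Pkp2 whatever their change; Pkp4 was added because it was called. Of each partner list at most 4 called genes are given with values where more were called, apart from the tight junction and regulator lists, whose further genes were added after their values were seen. Alternatives were another pooling of the spread, array weights, robust variances, quantile or median scaling, filters on low values, named probe sets alone, mouse 10 regrouped, sex as a covariate, the authors' fold rule (over 1.5-fold with an unadjusted p under 0.05) and each mouse left out.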

Additional observations from a re-analysis of the deposited data

Results flagged for a closer look

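Among 81 groups of 5 mice, 27 named genes in 3 groups, 6 held a mouse that stood apart from the other 4 by more of the range than Dixon's limit allows, and chance alone gives about 1 in 20. Mouse 10 was the low one of Nemo FL for Cldn12 (7.97, next 8.15) and for Jup (9.84, next 10.38), and its labels disagree on its genotype. Mouse 11 was the low one of NEMO IEC-KO for Cldn4 (8.90, next 9.69), and mouse 12 for Pkp3 (7.64, next 7.95). Among the double mutants, mouse 2 was low for Pkp2 (6.97, next 7.25) and mouse 5 high for Cldn8 (9.91, next 9.46). The calls of Cldn4, Cldn12 and Pkp3 in NEMO IEC-KO against Nemo FL were kept without mouse 10, mouse 11 or mouse 12.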

How the results depend on the processing

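Placement of mouse 10 had the largest effect. With it counted as NEMO IEC-KO, 3 junction genes were called against Nemo FL (0 higher, 3 lower; background 8.52%) in place of 18, and 5 between double mutants and NEMO IEC-KO (3 higher, 2 lower; background 6.77%) in place of 13. By a fold change over 1.5 with an unadjusted p under 0.05, the counts were 12 (4 higher; background 14.7%) and 6 (3 higher, 3 lower; background 12.5%). Leaving out 1 mouse at a time gave 17 to 19 calls (8 to 10 higher, 9 to 10 lower) for NEMO IEC-KO against Nemo FL and 7 to 12 (4 to 7 higher, 3 to 6 lower) for double mutants against NEMO IEC-KO, with the 7 without mouse 2 and the 8 without mouse 4. The backgrounds were 20.4% to 27.1% for the former comparison and 14.7% to 19.6% for the latter. Without mice 1 and 2 the latter had 9 calls, 3 of them lower (background 11.4%). All other alternatives gave 16 to 20 and 11 to 16 calls, and 0 for double mutants against Nemo FL, where sex as a covariate was not run. For the first 2 comparisons their backgrounds were 26.2% to 41.5% and 18.6% to 35.3%, so steady counts do not mean steady shares. A filter at the median of all values removed Cldn1, Cldn10, Gjc1 and Gjc3 from the test. No called difference changed sign under any alternative run, apart from that of Pkp4, whose sign was not followed. No paired analysis was possible because the labels do not say which mice share a litter. For the 33 genes near the floor level, low signal limits what the array can show.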
